A study of Mus musculus with 16 samples.

Results

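The genes described here were 43 homeobox transcription factors, chosen by their symbols from the 30386 genes of the expression table: 14 genes of the TALE class, 6 of the POU class, 3 of the LIM class, 3 of the CUT class, 6 of the zinc finger class, 7 of the ANTP class, 2 of the PRD class, and *Prox1* and *Hopx*. They were followed in neural stem/progenitor cells (NSPCs) cultured from the subventricular zone, the germinal layer that lines the lateral ventricles of the adult mouse brain. Both groups derived from mice of 3 months of age of the C57BL/6 J/Babr strain and both carried a constitutively expressed transgene with puromycin selection, which was *Dbx2*, itself a homeobox gene, in *Dbx2*-NSPCs and *GFP* in *GFP*-NSPCs. Each group had 8 samples of non-adherent proliferating cultures, numbered 1 to 8 in the labels, and RNA was read by 3′ tag sequencing at 1803928 to 3293285 reads per sample. The study used more than a single pair of lines, but the labels do not tell which sample came from which line, and nothing was measured in tissue. The labels also do not say that samples of the same number in both groups are a pair.

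Homeobox proteins bind DNA through the homeodomain, a fold that recognises short AT-rich sequences, and most of them gain specificity from a further domain or from partners. TALE proteins such as MEIS and PBX form complexes with each other and with other homeodomain proteins, POU proteins add a POU-specific domain and act with SOX factors in neural progenitors, and CUT and zinc finger homeobox proteins add their own DNA-binding domains. In the subventricular zone, MEIS2, PAX6 and DLX proteins are known for their part in the formation of olfactory bulb neurons, and PROX1 and ZEB proteins for their roles in progenitor maintenance and differentiation.

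The upstream sequences of *Meis1*, *Meis2*, *Pou3f3* and *Satb1* are shown because these were the tested genes of the 43 whose levels did not overlap between the groups. Each is the stretch of 250 bases before a start of the gene in RefSeq (GRCm38.p6), written 5′ to 3′ on the strand of the gene. *Satb1* had 5 such starts, of which 1 is shown, and *Meis1*, *Meis2* and *Pou3f3* had 1 each. The positions given for whole genes below come from another annotation of GRCm38 (GENCODE), in which *Meis1* and *Meis2* start further upstream, so these 2 stretches lie partly or wholly within the spans given for the genes. In the first search, 4 motifs were sought on both strands: TAATTA, a palindromic homeodomain site, ATGCAAAT, the octamer of POU proteins, TGACAG, a MEIS-type site, and CAGGTG, a ZEB-type E-box. None of the 4 was in any of the 4 sequences. The motifs TAAT, the homeodomain core, and CCAAT, the CCAAT box, were added only after that search and after the sequences had been read, so their matches, shown in capitals on either strand, were picked with the sequences in view. TAATTA contains TAAT, so their matches overlap.
Meis1 (chr11:19018970-19019219, minus strand): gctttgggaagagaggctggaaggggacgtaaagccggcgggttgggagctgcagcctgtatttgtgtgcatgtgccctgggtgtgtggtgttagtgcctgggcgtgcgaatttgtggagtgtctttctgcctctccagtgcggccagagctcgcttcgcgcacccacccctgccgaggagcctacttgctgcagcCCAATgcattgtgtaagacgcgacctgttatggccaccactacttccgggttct
Meis2 (chr2:116064620-116064869, minus strand): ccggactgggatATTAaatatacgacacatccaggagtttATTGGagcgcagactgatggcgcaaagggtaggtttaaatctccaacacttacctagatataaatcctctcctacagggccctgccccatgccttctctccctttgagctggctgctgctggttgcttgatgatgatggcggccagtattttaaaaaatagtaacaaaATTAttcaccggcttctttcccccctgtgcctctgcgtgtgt
Pou3f3 (chr1:42695518-42695767, plus strand): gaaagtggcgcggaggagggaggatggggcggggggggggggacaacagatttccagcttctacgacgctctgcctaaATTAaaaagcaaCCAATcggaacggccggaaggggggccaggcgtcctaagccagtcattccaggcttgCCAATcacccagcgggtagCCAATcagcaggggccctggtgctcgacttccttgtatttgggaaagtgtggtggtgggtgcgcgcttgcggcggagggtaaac
Satb1 (chr17:51833291-51833540, minus strand): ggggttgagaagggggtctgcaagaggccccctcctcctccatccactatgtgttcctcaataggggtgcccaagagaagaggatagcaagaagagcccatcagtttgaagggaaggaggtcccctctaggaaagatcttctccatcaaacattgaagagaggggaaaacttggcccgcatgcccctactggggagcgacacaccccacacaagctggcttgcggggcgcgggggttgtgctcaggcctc
Of the 43 genes, 32 had an entry among these sequences. TAATTA was in 1 of them (*Otx2*) against 4.84% of all 32851 promoters, ATGCAAAT in 0 against 1.6%, TGACAG in 0 against 15.9%, and CAGGTG in 4 (*Pbx2*, *Pou6f1*, *Cux2* and *Nkx6-2*) against 17.2%. The added motifs were in 12 of the 32 for TAAT, against 54.9% of all promoters, and in 12 for CCAAT, against 33.8%. The counts are of genes and the shares are of promoters, and a gene can have more than 1 start. A match describes letters in this window and a missing match says nothing of binding elsewhere.

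Of the 43 genes, 34 passed the filter of more than 1 CPM (counts scaled to a common total per sample) in at least 4 samples and were tested. *Lhx8*, *Dlx5*, *Dlx6*, *Nkx6-1* and *Vax1* had 0 reads in all 16 samples. The highest level was 0.45 CPM for *Lhx6*, 0.64 CPM for *Emx1*, 1.06 CPM for *Nkx2-2* and 1.67 CPM for *Zfhx4*, the last of these from 5 reads. A sample with 0 reads still allows up to 3 reads, by counting error only. *Zfhx4* was above 3 reads in 1 sample, *GFP*-NSPC 4, and the other 8 genes were at or under 3 reads in every sample, that is, not detectable at this depth. *Nkx6-2* passed the filter through *GFP*-NSPCs alone, with 5 samples above 1 CPM against 0, and *Hopx* mostly so, with 6 against 1. *Irx2* had 3 such samples in each group.

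**Figure D1:**
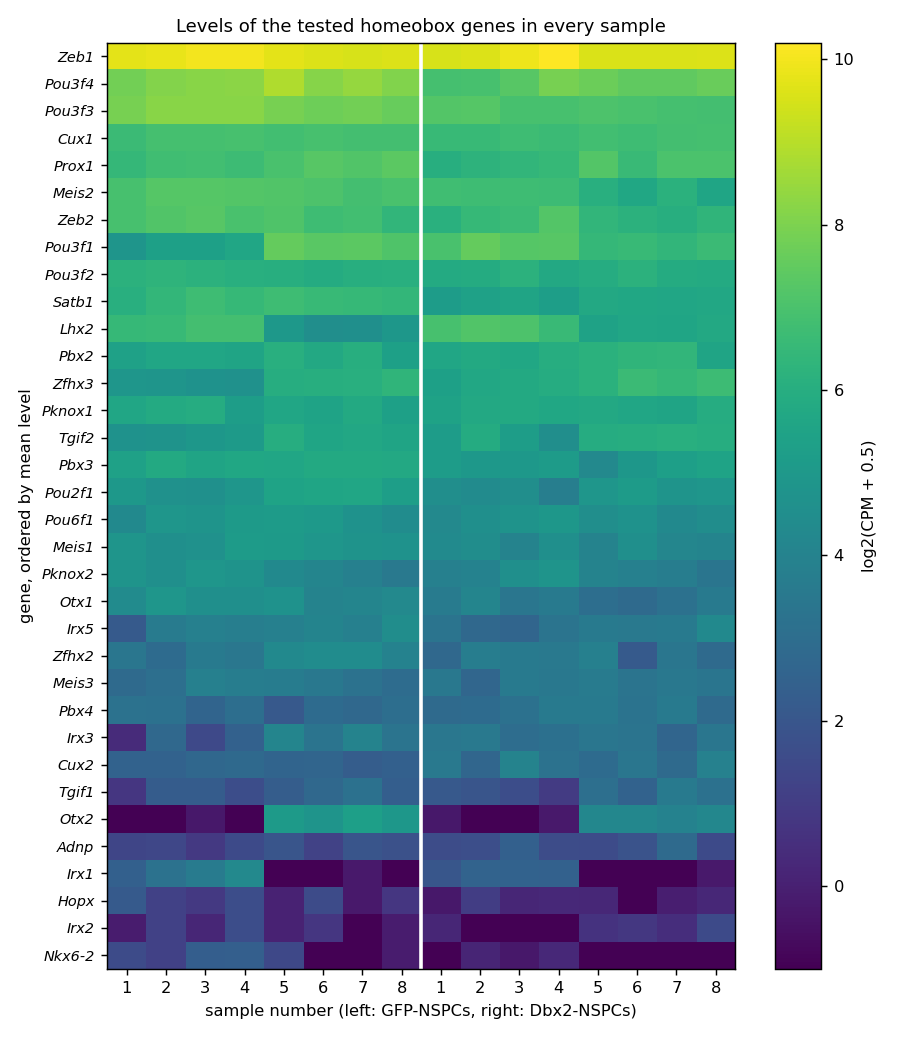
Levels of the 34 tested genes in the 16 samples, as log2(CPM + 0.5) in colour, with genes in rows and samples in columns (*GFP*-NSPCs left, *Dbx2*-NSPCs right). *Otx2* is above 1 CPM in the samples numbered 5 to 8 and *Irx1* in those numbered 1 to 4, in both groups.

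The labels were checked by *Dbx2* (chr15:95623563-95655960, minus strand). In *GFP*-NSPCs its level was 171, 105, 116 and 89.3 CPM for the numbers 1 to 4 and 31.6, 30.7, 34.1 and 39.5 CPM for the numbers 5 to 8. In *Dbx2*-NSPCs it was 232, 168, 157 and 136 CPM and 155, 114, 138 and 138 CPM. *Dbx2* was higher in *Dbx2*-NSPCs at each of the 8 numbers (log2 fold change 1.26 ± 0.317 SE, limma adjusted p = 0.00978), but the ranges of both groups overlapped among numbers 1 to 4, with a change there of 0.54 ± 0.198 (adjusted p = 0.0891), against 1.99 ± 0.118 (adjusted p = 5.67e-08) among numbers 5 to 8. The difference between these sets was called (adjusted p = 0.000104). Among numbers 1 to 4 the change was called without *GFP*-NSPC 1 (0.72, adjusted p = 0.0112) and without *Dbx2*-NSPC 4 (0.65, adjusted p = 0.046). Whether reads of the transgene were counted on the endogenous gene is not given in the sources used here.

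Between the groups, 9 of the 34 tested genes were called at an adjusted p under 0.05 in limma, against 15.8% of all 12533 tested genes. *Meis1*, *Meis2*, *Pbx3*, *Pou3f3*, *Pou3f4*, *Satb1*, *Zeb2* and *Otx1* fell in *Dbx2*-NSPCs (8 genes, where 7.78% of all genes fell) and *Cux2* rose (1 gene, where 8.03% rose). The median log2 fold change was -0.289 over the 34 genes and -0.022 over all tested genes, and 67.6% against 52.7% of them were negative. In *Meis1*, *Meis2*, *Pou3f3* and *Satb1*, every *Dbx2*-NSPC sample was below every *GFP*-NSPC sample, which held for 1.81% of all genes (3.41% in either direction). With the sample number as a block, 15 of the 34 genes were called, against 21.7% of all genes, of which 4 rose (10.8% of all) and 11 fell (10.9%). *Nkx6-2*, 1 of these 11, passed the filter through *GFP*-NSPCs alone, so its direction was fixed by the filter. In bulk RNA, fewer cells of a type and less RNA per cell cannot be told apart.

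**Figure D2:**
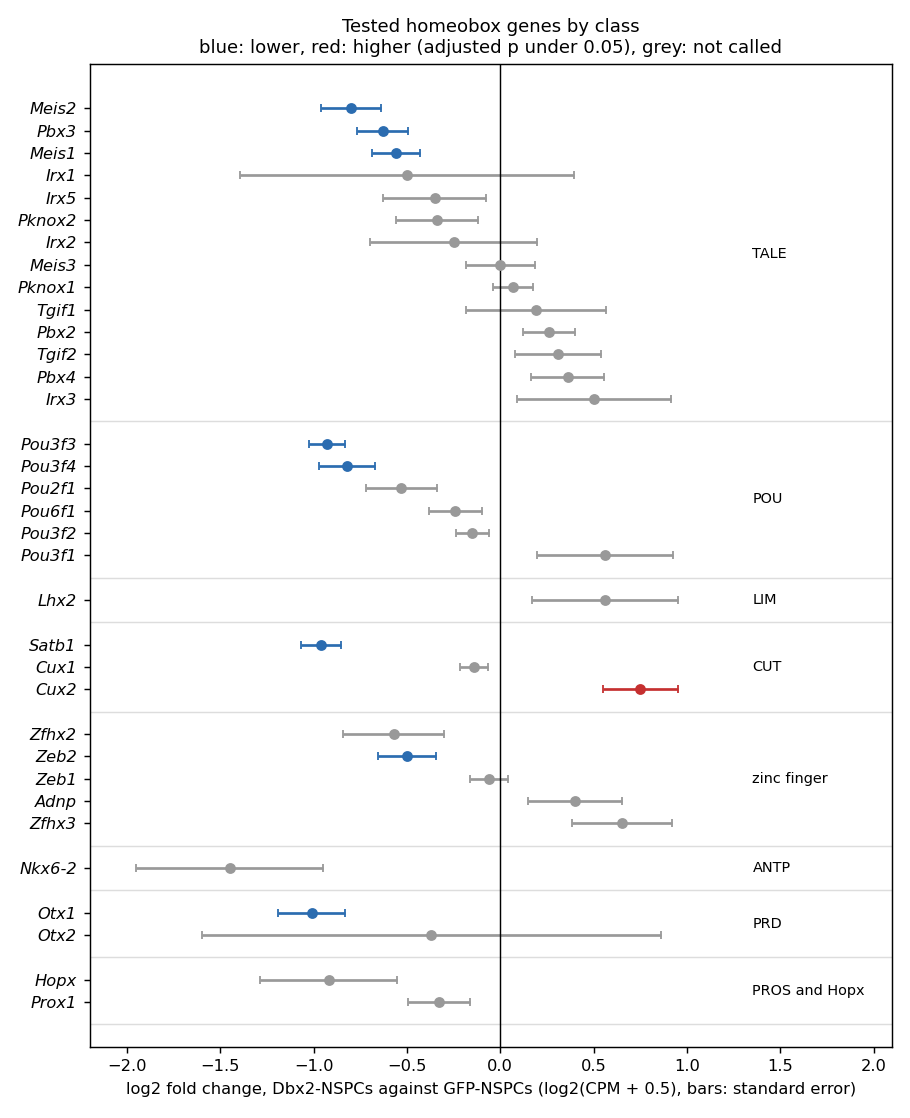
Log2 fold changes of the 34 tested genes, *Dbx2*-NSPCs against *GFP*-NSPCs with 8 samples each, by homeobox class, with standard errors as bars. The 8 genes that fell are blue and *Cux2*, which rose, is red.

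Among the TALE genes, 3 of 14 fell and 0 rose, against 7.78% and 8.03% of all genes. *Meis2* (chr2:115863064-116065839), a cofactor of PAX6 and DLX proteins in olfactory bulb neurogenesis, was at 123, 150, 152 and 145 CPM in *GFP*-NSPCs numbered 1 to 4 and at 144, 135, 116 and 127 CPM in those numbered 5 to 8. In *Dbx2*-NSPCs it was at 108, 104, 105 and 102 CPM and at 66.5, 51.2, 70 and 47.6 CPM. Every sample of the second group was lower, and those numbered 5 to 8 were the lowest, with a log2 fold change of -0.8 ± 0.162 (adjusted p = 0.00205). *Meis1* (chr11:18879817-19018985), a relative that also binds PBX proteins, ranged from 23.6 to 35.3 CPM (median 27.1) in *GFP*-NSPCs and from 15.5 to 23.3 CPM (median 18.7) in *Dbx2*-NSPCs, a change of -0.56 ± 0.129 (adjusted p = 0.00548). *Pbx3* (chr2:34171457-34373142), a MEIS partner, went from a mean of 50.9 ± 4.81 CPM (SD, n = 8) to 33.4 ± 7.75 CPM, a change of -0.63 ± 0.137 (adjusted p = 0.00348). Its groups overlapped in range over all samples but not within either set of numbers.

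*Pbx2* was higher in *Dbx2*-NSPCs at each of the 8 numbers, from a mean of 51.4 to 61.9 CPM, without being called (log2 fold change 0.26 ± 0.138, adjusted p = 0.231), and was called with the block (adjusted p = 0.0432) but not with a covariate for the sets of numbers (adjusted p = 0.126). The other TALE genes were not called. *Meis3* was at 10.3 and 10.1 CPM in *GFP*-NSPCs and *Dbx2*-NSPCs and *Pbx4* at 6.97 and 9.1 CPM. *Pknox1*, a MEIS-related partner of PBX proteins, was at 49.3 and 51.3 CPM, and *Pknox2* at 21 and 16.5 CPM. For *Tgif1* and *Tgif2*, repressors that act on SMAD-dependent transcription, the means were 4.54 and 5.6 CPM, and 40.6 and 50.7 CPM, respectively. The Iroquois gene *Irx5* was at 13.7 and 10.4 CPM, with a log2 fold change of -0.35 ± 0.276 (adjusted p = 0.43) that became -0.57 without *GFP*-NSPC 1 (adjusted p = 0.0725).

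Among the POU genes, 2 of 6 fell, against 7.78% of all genes. *Pou3f3* (Brn1, chr1:42695768-42703176), which acts in neural progenitors and upper-layer cortical neurons, was at 240, 293, 296 and 294 CPM in *GFP*-NSPCs numbered 1 to 4 and at 239, 212, 225 and 195 CPM in those numbered 5 to 8. In *Dbx2*-NSPCs it was at 145, 153, 124 and 124 CPM and at 134, 127, 119 and 115 CPM. The groups were apart in both sets, and the log2 fold change of -0.93 ± 0.0962 had an adjusted p of 2.43e-06 in limma. *Pou3f4* (Brn4, chrX:110814280-110817207), a factor of neuronal differentiation in the striatum, ranged from 224 to 465 CPM (median 290.0) in *GFP*-NSPCs and from 120.0 to 238 CPM (median 179) in *Dbx2*-NSPCs. It fell by 0.82 on the log2 scale (SE 0.149, adjusted p = 0.000746), with an overlap made by *GFP*-NSPC 1 and *Dbx2*-NSPC 4.

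*Pou3f2* (Brn2), a close relative with roles in neuron production, was at 68.1 ± 6.49 and 61.5 ± 7.22 CPM (adjusted p = 0.281 in limma). *Pou2f1* (Oct1), a broadly expressed octamer-binding factor, was lower in *Dbx2*-NSPCs at each of the 8 numbers, 36 against 24.7 CPM, with a change of -0.53 ± 0.19 that was not called (adjusted p = 0.0633) but was with the block (adjusted p = 0.00705). *Pou6f1* was at 28.1 and 23.6 CPM (adjusted p = 0.279). *Pou3f1* is described with the sets of numbers.

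Among the CUT genes, *Satb1* fell and *Cux2* rose. *Satb1* (chr17:51736187-51833290), a chromatin organiser that binds AT-rich DNA, was at 65.7, 86.1, 105 and 89.3 CPM in *GFP*-NSPCs numbered 1 to 4 and at 104, 93.5, 89.1 and 85.5 CPM in those numbered 5 to 8. In *Dbx2*-NSPCs it was at 35.6, 41.9, 46.6 and 38.8 CPM and at 53.1, 50.6, 48.3 and 51.7 CPM. The lowest *GFP*-NSPC sample, number 1, was still above the highest *Dbx2*-NSPC sample, and the log2 fold change was -0.96 ± 0.107 (adjusted p = 5.37e-06 in limma). *Cux2* (chr5:121856366-122050102), a marker of upper-layer cortical neurons and their progenitors, ranged from 4.44 to 6.66 CPM (median 5.42) in *GFP*-NSPCs and from 6.07 to 15.6 CPM (median 9.61) in *Dbx2*-NSPCs. It was higher at each of the 8 numbers, by 0.75 ± 0.199 on the log2 scale (adjusted p = 0.0144). Its paralog *Cux1* was at 115 ± 7.87 and 105 ± 9.74 CPM (adjusted p = 0.239).

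**Figure D3:**
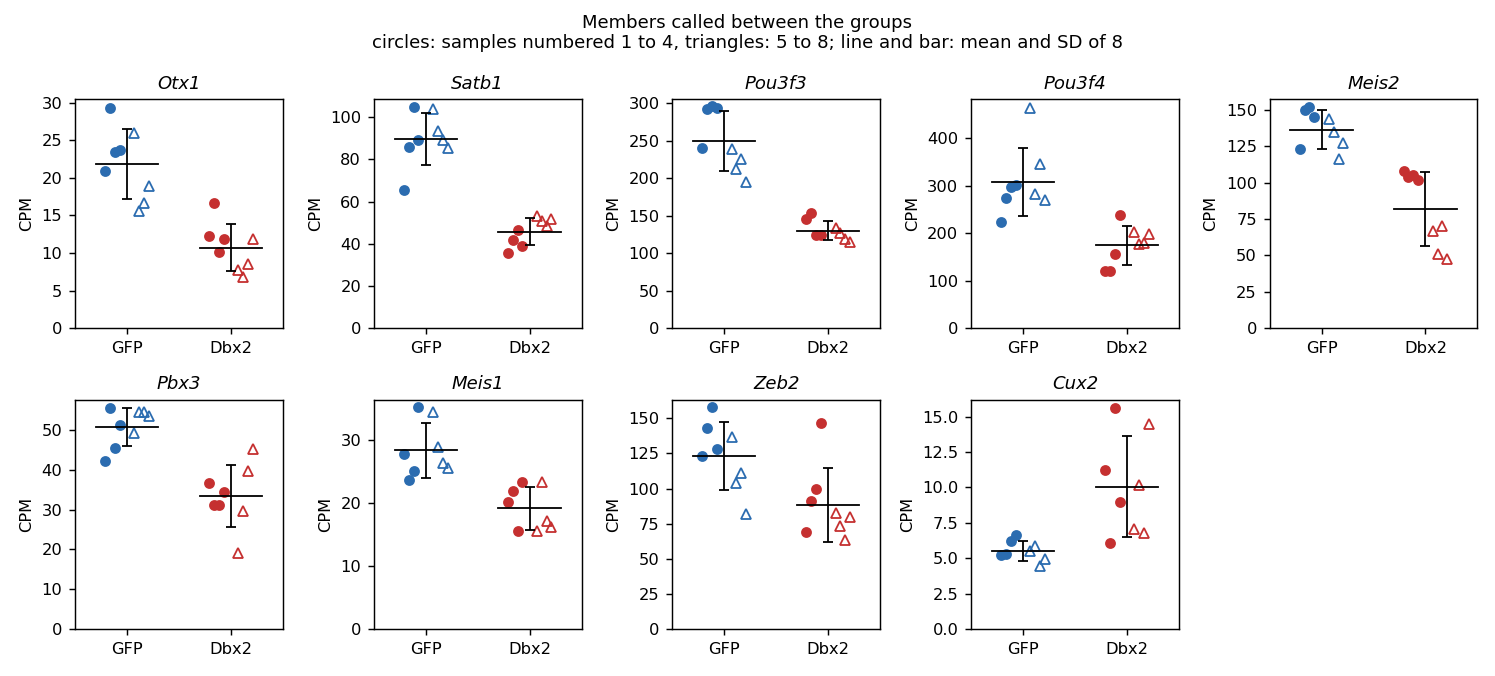
Levels in CPM of the 9 called genes in each sample, *GFP*-NSPCs in blue and *Dbx2*-NSPCs in red, with circles for samples numbered 1 to 4, triangles for 5 to 8, and lines and bars for the mean and SD of 8 samples. The groups do not overlap for *Satb1*, *Pou3f3*, *Meis2* and *Meis1*.

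*Otx1* (chr11:21994764-22002897), a PRD class gene of forebrain patterning, fell in *Dbx2*-NSPCs. It was at 20.9, 29.3, 23.5 and 23.7 CPM in *GFP*-NSPCs numbered 1 to 4 and at 26, 15.6, 16.7 and 18.9 CPM in those numbered 5 to 8. In *Dbx2*-NSPCs it was at 12.2, 16.7, 10.1 and 11.8 CPM and at 7.74, 6.83, 8.58 and 11.8 CPM. The groups were apart within each set, and over all samples they overlapped in a narrow range around the highest *Dbx2*-NSPC value (log2 fold change -1.01 ± 0.18, adjusted p = 0.000644).

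Of the zinc finger genes, *Zeb2* (chr2:44983632-45117395), a SMAD-binding repressor, fell from 123 ± 24.1 to 88.2 ± 26.5 CPM (log2 fold change -0.5 ± 0.155, adjusted p = 0.0331). This call was lost in edgeR on the recovered reads (adjusted p = 0.067) and in limma without the trend (adjusted p = 0.0548), and *Dbx2*-NSPC 4, at 147 CPM, was above 7 of the 8 *GFP*-NSPC samples. *Zeb1*, its paralog, was at 869 ± 106 and 841 ± 154 CPM (adjusted p = 0.761). The antisense gene *Zeb2os* overlaps *Zeb2* and averaged 6.58 CPM, and the strand used in counting is not given in the sources used here. *Adnp*, a chromatin remodelling factor, was at 2.4 and 3.42 CPM (adjusted p = 0.312). The protein-coding gene *Gm20716* overlaps *Adnp* on the same strand and averaged 0.0219 CPM. How reads shared by both were counted is not given, so the level of *Adnp* may be understated. *Zfhx3*, which is linked to cell cycle arrest of neural cells, was higher in *Dbx2*-NSPCs at each of the 8 numbers (47.8 against 71 CPM), with a change of 0.65 ± 0.267 that was not called over all samples (adjusted p = 0.109) and was with the block (adjusted p = 0.00204).

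*Prox1*, which regulates cell cycle exit and neuronal fate, was at 125 ± 26.7 and 101 ± 29.2 CPM and was not called (adjusted p = 0.193), but was with the block (adjusted p = 0.0231). *Lhx2*, the one LIM gene above the filter and a regulator of forebrain progenitors, was at 64.9 and 86.1 CPM (adjusted p = 0.367, and 0.00935 with the block). *Hopx*, an atypical homeodomain protein without DNA binding known from quiescent stem cells, had at most 4.03 CPM and a change of -0.92 ± 0.366 (adjusted p = 0.0953). *Nkx6-2*, a ventral patterning gene, was at 2.42, 1.76, 4.56 and 4.67 CPM in *GFP*-NSPCs numbered 1 to 4 and at 2.22, 0, 0 and 0.41 CPM in those numbered 5 to 8. All 8 *Dbx2*-NSPC samples were at or under 3 reads, the highest at 0.72 CPM. Its adjusted p was 0.0567 in limma and 0.0209 with the block, and its fitted fold change depended on the pseudocount. *Inpp5a*, which overlaps it on the other strand, averaged 28.9 CPM.

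Within a group, the libraries with numbers 5 to 8 lay close to each other, with chi-square values of 2.36 to 5.66 per gene, and further from those with numbers 1 to 4, at 9.31 to 22.9. The latter set was less uniform, since *GFP*-NSPC 1 lay at 8.09 to 13.2 from the others of its set and *Dbx2*-NSPC 4 at 6.84 to 17.9. The fold changes were also fitted within each set of 4 against 4 samples, which share no samples. Without *Dbx2*-NSPC 4, 10 of the 34 genes were called over the remaining samples (15.8% of all genes), the 9 above and *Nkx6-2*, and without *GFP*-NSPC 1 the same 9 were called (17.6% of all genes). In the samples numbered 1 to 4, 11 of the 34 genes were called (15.6% of all genes), 8 lower (7.37%), *Nkx6-2* among them, and 3 higher (8.19%). In those numbered 5 to 8, 14 were called (23.2% of all genes), 12 lower (11.7%) and 2 higher (11.5%). *Meis2*, *Pbx3*, *Pou3f3*, *Pou3f4*, *Satb1* and *Otx1* fell in both sets (6 genes, 3.1% of all genes), and *Zfhx3* rose in both, by 0.93 ± 0.148 and 0.38 ± 0.128 (adjusted p = 0.00144 and 0.0469 in limma). *Pou3f3* fell by 1.04 and by 0.81, *Satb1* fell by 1.07 and by 0.86, and *Otx1* fell by 0.92 and by 1.1 on the log2 scale. For these 3 genes the difference between the sets was not called (adjusted p = 0.396, 0.57 and 0.804). *Meis1* and *Zeb2* were called among numbers 5 to 8 (adjusted p = 0.012 and 0.0147 in limma) but not among numbers 1 to 4 (0.127 and 0.107). *Cux2* was called in neither set, at 0.72 and 0.78 (adjusted p = 0.122 and 0.0603). The difference between the sets was not called for *Meis1*, *Zeb2* or *Cux2* (adjusted p = 0.704, 0.957 and 0.961).

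**Figure D4:**
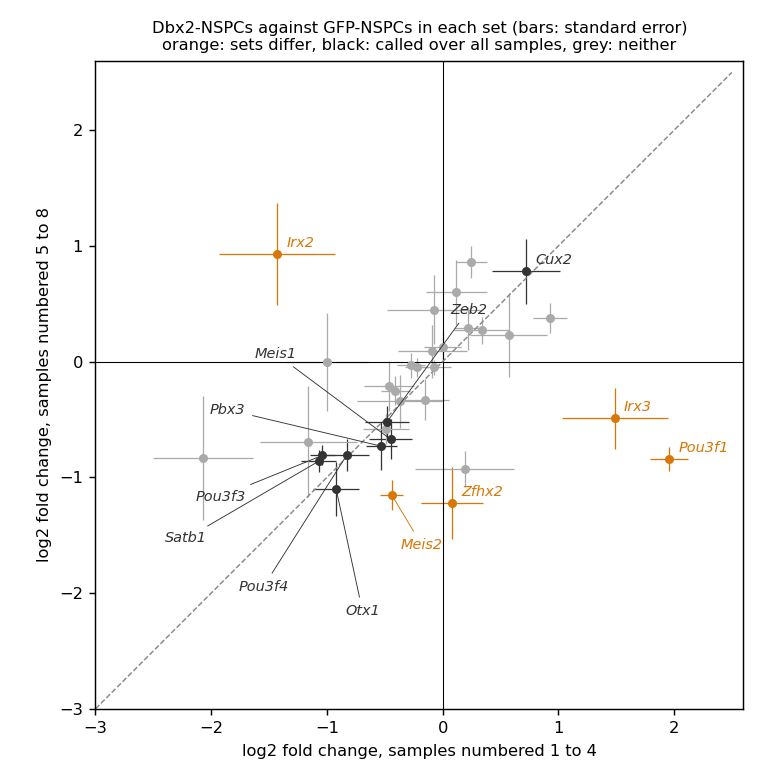
Log2 fold change of each tested gene in the samples numbered 1 to 4 (x axis) and 5 to 8 (y axis), with standard errors as bars and the line of equal change dashed. *Pou3f1* and *Irx3* lie at the lower right, positive in the first set and negative in the second, and *Irx2* at the upper left rests on at most 8 reads a sample.

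The fold change differed between the sets in 5 of the 34 genes, against 9.44% of all tested genes. *Pou3f1* (Oct6, chr4:124656807-124660655), a POU factor of early neural and glial development, was at 28.6, 40.6, 41 and 49.3 CPM in *GFP*-NSPCs numbered 1 to 4 and at 128, 185, 151 and 154 CPM in *Dbx2*-NSPCs with these numbers. In those numbered 5 to 8 it was at 186, 162, 167 and 139 CPM in *GFP*-NSPCs and at 88.7, 93.2, 82.2 and 99.9 CPM in *Dbx2*-NSPCs. The groups did not overlap in either set and lay in opposite order, with log2 fold changes of 1.96 ± 0.165 (adjusted p = 1.66e-05) and -0.84 ± 0.101 (adjusted p = 3.48e-05). The difference between the sets was -2.79 ± 0.197 (adjusted p = 4.15e-10 in limma). It was the one of the 34 genes called in opposite directions, which 1.47% of all genes were, and over all 16 samples its change of 0.56 was not called (adjusted p = 0.33, and 0.35 in size without *GFP*-NSPC 1). The difference held without *GFP*-NSPC 1 (-2.64) and without *Dbx2*-NSPC 4 (-2.79).

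*Meis2* fell in both sets, by 0.44 in the first and by 1.15 in the second, and the difference of -0.71 ± 0.168 was called (adjusted p = 0.00581). *Irx3* (chr8:91798525-91802067), a neural patterning gene, was at 0.81, 6.35, 2.28 and 5 CPM in *GFP*-NSPCs numbered 1 to 4 and at 10.3, 10.9, 7.49 and 8.25 CPM in *Dbx2*-NSPCs with these numbers. In those numbered 5 to 8 it was at 16.6, 9.51, 15.7 and 9.46 CPM and at 10.2, 9.32, 5.87 and 10.1 CPM. It rose in the first set (1.49 ± 0.456, adjusted p = 0.0443) and was not called in the second (-0.49 ± 0.265, adjusted p = 0.213), and the sets differed by -1.98 ± 0.531 (adjusted p = 0.0158). Its call in the first set was lost without *GFP*-NSPC 1 (1.03, adjusted p = 0.0604) and without *Dbx2*-NSPC 4 (1.54, adjusted p = 0.0582), and the difference was called with either left out.

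*Zfhx2* (chr14:55060262-55092324), a large zinc finger homeodomain protein, was at 10.1, 7.05, 11.4 and 10.3 CPM in *GFP*-NSPCs numbered 1 to 4 and at 6.42, 13.1, 11.4 and 11.1 CPM in *Dbx2*-NSPCs. In those numbered 5 to 8 it was at 19.4, 21.5, 21.5 and 15.2 CPM and at 14.4, 4.04, 9.93 and 6.75 CPM. It fell only in the second set by its own test (-1.22 ± 0.31, adjusted p = 0.0108, against 0.08 ± 0.267 in the first), and the difference of -1.3 ± 0.419 lay at the threshold (adjusted p = 0.0497, 0.0568 without *GFP*-NSPC 1 and 0.0628 without *Dbx2*-NSPC 4). The antisense genes *Zfhx2os* and *Gm20687* overlap *Zfhx2* and averaged 1.02 and 0.236 CPM. *Irx2* (chr13:72628820-72634198) had at most 8 reads in any sample, with 11 of 16 samples at or under 3 reads, so that its called difference (2.35 ± 0.713, adjusted p = 0.0353) rests on few reads, and it was not called without *Dbx2*-NSPC 4 (adjusted p = 0.0556). Its level was 0.4, 1.76, 0.65 and 2.67 CPM in *GFP*-NSPCs numbered 1 to 4 and 0.55, 1.23, 0 and 0.41 CPM in those numbered 5 to 8, and in *Dbx2*-NSPCs 0.64, 0, 0 and 0 CPM and 1.06, 1.24, 0.9 and 2.36 CPM.

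**Figure D5:**
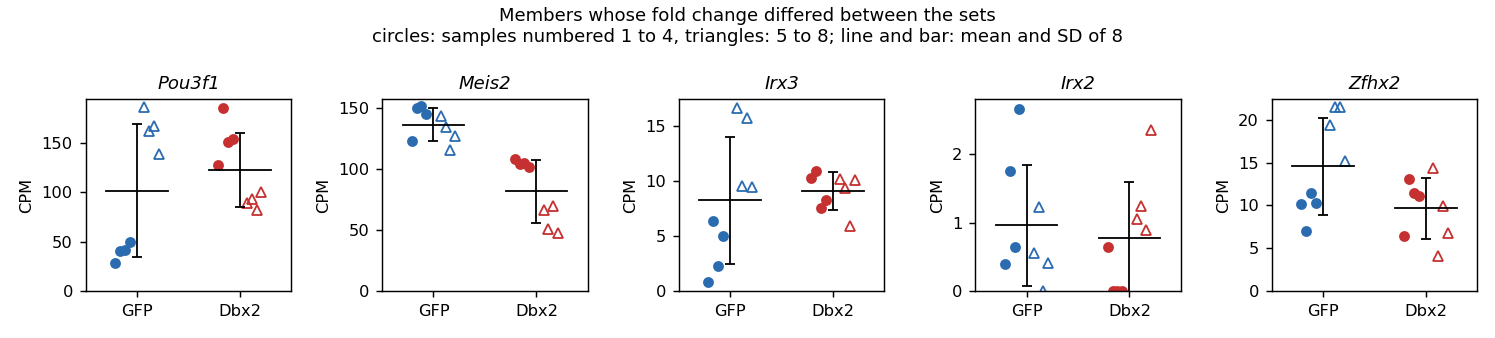
Levels in CPM of the 5 genes whose fold change differed between the sets, with circles for samples numbered 1 to 4, triangles for 5 to 8, and lines and bars for the mean and SD of 8 samples. For *Pou3f1* the circles rise from *GFP*-NSPCs to *Dbx2*-NSPCs and the triangles fall.

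Some genes differed in level between the sets in both groups. *Otx2*, a regulator of forebrain and midbrain identity, was at most 0.36 CPM in all 8 samples with numbers 1 to 4. With numbers 5 to 8 it was at 33.8, 27.6, 39.6 and 30.4 CPM in *GFP*-NSPCs and at 17.6, 17.7, 14.9 and 17.6 CPM in *Dbx2*-NSPCs, where it fell by 0.93 on the log2 scale (SE 0.157, adjusted p = 0.000637). *Irx1* had the reverse pattern, with at most 0.34 CPM in the samples numbered 5 to 8, and with 4.83, 8.82, 12.1 and 19 CPM in *GFP*-NSPCs and 3.53, 5.46, 5.21 and 5.02 CPM in *Dbx2*-NSPCs numbered 1 to 4 (log2 fold change -1.0 ± 0.365, adjusted p = 0.0867, -1.33 with an adjusted p of 0.0124 without *GFP*-NSPC 1, and -1.03 with an adjusted p of 0.105 without *Dbx2*-NSPC 4). *Lhx2* was at 89.4 to 141 CPM among numbers 1 to 4 and at 22.7 to 54.4 CPM among numbers 5 to 8, and it rose in the latter set (0.86 ± 0.14, adjusted p = 0.000463). With *Tgif1* and *Zfhx3*, which were higher in the samples numbered 5 to 8, these made 5 of the 34 genes without overlap between the sets, against 4.73% of all genes. *Otx2* and *Irx1* passed the filter through a single set, with 8 samples above 1 CPM there and 0 in the other set. Their separation is thus not independent of the filter, although the filter did not require it. This is a description, since the sets are numbers in the labels whose meaning these do not give, and line and batch cannot be told apart.

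For comparison, 173 further homeobox genes were in the table, of which 54 passed the filter. Of these, 2 rose and 7 fell, against 8.03% and 7.78% of all genes, with a median log2 fold change of -0.096. *Tshz2*, a teashirt zinc finger gene, went from 12.2 ± 3.9 to 57.4 ± 17.4 CPM (2.19 ± 0.197, adjusted p = 4.39e-07), and *Cers6*, a ceramide synthase with a homeobox-like domain, from 8.02 to 13 CPM (0.65 ± 0.214, adjusted p = 0.0445). *Hlx* fell by 1.63 (43.9 to 13.5 CPM), *Emx2*, a regulator of neural stem cell division, fell by 1.01 (61.3 to 30.5 CPM), and *Pax6* fell by 0.74 (42.9 to 25.6 CPM) on the log2 scale, each without overlap between the groups. Such a separation with *Dbx2*-NSPCs lower held for 1.81% of all genes (3.41% in either direction). *Prrx1* fell by 0.81 (45.4 to 27.9 CPM, adjusted p = 0.0499). With the block, 15 of the 54 were called, against 21.7% of all genes. Without *Dbx2*-NSPC 4, 6 of the 54 were called, against 15.8% of all genes, and *Prrx1* (adjusted p = 0.0691) and *Cers6* (adjusted p = 0.0773) were not, while *Prrx1* was not called without *GFP*-NSPC 1 (adjusted p = 0.0658) or in edgeR (adjusted p = 0.0912) either.

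Of 40 listed partners and targets of the LIM, ZEB, ADNP and POU factors, 28 were tested, 1 rose and 6 fell, against 8.03% and 7.78% of all genes, with a median log2 fold change of -0.186. *Lmo4*, a LIM-only protein that competes for LDB cofactors, fell by 1.12 (446 ± 101 to 202 ± 25.8 CPM, adjusted p = 5.61e-06). The LDB-binding *Ssbp2* fell by 0.79, while *Ssbp4* rose by 0.66 ± 0.0983 (145 to 226 CPM, adjusted p = 0.000128). *Sox11* and *Fabp7*, a partner and a target of neural POU factors, fell by 0.41 and by 0.72 (adjusted p = 0.0113 and 0.0149 in limma). The deacetylase gene *Hdac2* fell by 0.58 and *Cbx1*, which codes for a heterochromatin protein, fell by 0.22 (adjusted p = 0.0197 in limma, and 0.122 with quantile normalization, where it was not called). With the block, 11 of the 28 were called, against 21.7% of all genes.

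Markers of cell types moved beside these genes. The summed level of 8 NSPC markers, led by *Vim*, had medians of 5637.5 and 4810.0 CPM in *GFP*-NSPCs and *Dbx2*-NSPCs, and *Egfr*, *Fabp7* and *Msi1* fell (3 of 8, against 7.78% of all genes). Of 5 astrocyte markers, *Gfap* rose (5.77 to 42.6 CPM) and *Aldh1l1* fell (241 to 103 CPM), with summed medians of 451 and 346 CPM. Of 4 ependymal markers, *Ccdc153* and *Rarres2* rose (against 8.03% of all genes), the sum went from a median of 15.1 to 30.9 CPM with *Foxj1* the most abundant, and *Tmem212* was at 0. *Ccdc153* (1.43 to 5.41 CPM) and *Rarres2* (2.38 to 5.75 CPM) were low. In limma both were called among numbers 1 to 4 (adjusted p = 0.00276 and 0.0148) but not among numbers 5 to 8 (0.245 and 0.286). The 6 neuronal markers, led by *Tubb3* and with *Stmn2* at 0, had medians of 29.1 and 28.8 CPM with 0 called over all samples. Of these markers, 2 were called in opposite directions in the sets, against 1.47% of all genes. *Dcx*, a neuroblast marker, was at 1.61 to 6.84 CPM in *GFP*-NSPCs and at most 0.33 CPM in *Dbx2*-NSPCs with numbers 1 to 4 (adjusted p = 0.00111), and at most 0.82 CPM against 3.52 to 5.42 CPM with numbers 5 to 8 (adjusted p = 8.48e-05). *Rbfox3*, a marker of mature neurons, fell by 1.96 on the log2 scale among numbers 1 to 4 (adjusted p = 0.0106) and rose by 2.9 among numbers 5 to 8 (adjusted p = 0.000125). *Gad1* fell by 1.55 among numbers 1 to 4 (adjusted p = 0.00592). The fold change differed between the sets for 5 of the 27 markers tested (*Nes*, *Dcx*, *Rbfox3*, *Slc1a2* and *Acta2*), against 9.44% of all genes. The 7 oligodendrocyte lineage markers, led by *Olig2* and with *Mog* at 0, had medians of 1403.1 and 1334.9 CPM with 0 called. The sums of the 5 microglial, 4 endothelial and 4 mural markers had medians of at most 2.45 CPM in either group, with *Aif1*, *Cdh5* and *Cldn5* at 0 in every sample. The part of the NSPC, neuronal, astrocyte and ependymal markers in the homeobox changes was not tested.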

How the data were processed

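Total RNA of 16 cultures was read by QuantSeq 3′ mRNA-Seq. Per the labels and the study's methods, the authors checked reads with FastQC 0.11.8, aligned them with STAR 2.5.0a to GRCm38 and counted them on genes, and they deposited a table of CPM, in which the counts of each sample are scaled to a common total. The counting tool and strand are not given in the sources used here. Whole reads were recovered from the CPM steps (100% of values whole within 0.006 CPM), giving 1803928 to 3293285 reads a sample. A 3′ tag count does not scale with transcript length.

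Genes above 1 CPM in at least 4 samples were compared by limma (version 3.58.1, R version 4.3.3, eBayes with trend) after conversion to log2(CPM + 0.5), over all 12533 genes, with Benjamini-Hochberg adjustment and a threshold of 0.05. A fold change on this scale understates changes of low genes. The line of each sample, a covariate in the study, is not in the labels and was not fitted. Per the study's methods the cultures are independent experiments on 2 pairs of lines, so p-values measure the spread between cultures of these lines. No pair of libraries agreed within sampling noise. Recovered reads were also tested with edgeR (version 4.0.16) and DESeq2 (version 1.42.0); other alternatives were pseudocounts of 0.1 and 2, other filters and scalings, no trend, the block, a set covariate and leaving out *GFP*-NSPC 1 or *Dbx2*-NSPC 4. Scripts were tested on simulated data.

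The numbers 1 to 8 come from the labels and were used as the replicate block: same-numbered samples deviated together (lowest correlation 0.152, mean 0.226), although after removing the means of the sets the mean was 0.04, so the block carries mainly the set. Samples of other numbers in the same set had a mean correlation of 0.199. Statements that a gene was higher or lower at each of the 8 numbers therefore do not describe 8 known pairs.

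The 43 genes, the lists and the sets of numbers were chosen with earlier results of these data known. All 43 are named. Those with a called log2 fold change of at least 1 or a called difference between the sets have their values in every sample, as do others where the values help, and genes of other lists are named if called with a mean of at least 10 CPM, up to 8 a list, except that some are not reported here. Markers are named by list. Of the 6 promoter motifs, 4 were searched first and 2 were added after the sequences were read.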

Additional observations from a re-analysis of the deposited data

Results flagged for a closer look

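Of 68 groups of 8 values examined for a sample far from the others, 4 were found, and chance gives about 1 in 20. *Irx5* was at 4.03 CPM in *GFP*-NSPC 1 against 12.0 to 21.8 CPM in the other samples of its group. In the same sample *Cux1* was at 97.9 CPM against 112 to 124 CPM and *Satb1* at 65.7 CPM against 85.5 to 105 CPM. *Meis3* was at 6.07 CPM in *Dbx2*-NSPC 2 against 9.32 to 12.0 CPM. Without *GFP*-NSPC 1, *Satb1* fell by 1.02 on the log2 scale (limma adjusted p = 1.27e-06), and *Irx5* and *Cux1*, at -0.57 and -0.17, were not called (adjusted p = 0.0725 and 0.119).

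The fold change in the samples numbered 5 to 8 less that in those numbered 1 to 4, by limma's interaction term, was -2.79 for *Pou3f1* (adjusted p = 4.15e-10), -0.71 for *Meis2* (0.00581), -1.98 for *Irx3* (0.0158), 2.35 for *Irx2* (0.0353) and -1.3 for *Zfhx2* (0.0497). Outside the 43 genes it was 1.1 for *Tshz2* (0.0146), which rose in both sets, -0.65 for *Hdac2* (0.00153), 0.8 for *Sox3* (0.0173), -0.68 for *Nes* (0.00488) and 1.5 for *Slc1a2* (2.67e-06). It was called for 12 of the 54 further homeobox genes (-3.11 to 3.88), 4 of the 28 partners and 5 of the 27 markers, with *Nes* in both of these lists, against 9.44% of all genes. Of the partners and markers, *Twist1*, *Dcx*, *Rbfox3* and *Acta2* had means under 10 CPM.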

How the results depend on the processing

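Over the alternatives tried for the 34 tested genes, 413 values kept direction and side of the threshold, 19 passed it newly, 2 lost it (*Zeb2*, both given with its values) and 3 changed sign. The 3 were *Meis3*, from -0.000393 to 0.000279 with a pseudocount of 0.1 and to 0.02 with median-of-ratios scaling, and *Tgif1*, to -0.01 without *GFP*-NSPC 1, none of them called. The replicate block, which pairs samples by number, moved the genes called higher from 1 to 4 and lower from 8 to 11 (21.7% of all genes called), the further homeobox genes called from 9 to 15 and the partners called from 7 to 11. Beyond the calls given with their values it changed no other call of the 34 between the groups. A covariate for the sets gave 3 higher, 12 lower, 18 and 11 (24.2% of all genes called), with *Pou2f1* (adjusted p = 0.00215), *Lhx2* (0.00148), *Zfhx3* (0.000251), *Prox1* (0.0137), *Hopx* (0.0498) and *Nkx6-2* newly called. With this covariate their fold changes stayed the same and their standard errors were smaller. The standard error went from 0.267 to 0.116 for *Zfhx3*, from 0.39 to 0.118 for *Lhx2* and from 0.19 to 0.118 for *Pou2f1*. What sets the sets apart was not tested. *Pbx2* was the 1 of the 6 genes newly called with the block that this covariate did not call (0.126). *Hopx* and *Nkx6-2* passed the filter through *GFP*-NSPCs, where they were high, so their lower calls support nothing. The other newly passed calls were those of *Pou2f1* in DESeq2 (0.0428), *Hopx* with quantile normalization (0.0364) and *Nkx6-2* under 5 further settings (fold change -0.73 with a pseudocount of 2 to -3.23 in DESeq2). Leaving out *Dbx2*-NSPC 4 was chosen after seeing the data, and the genes whose fold change differed between the sets then numbered 3 (*Meis2*, *Irx3* and *Pou3f1*; 9.92% of all genes) against 5 (9.44%). Without *GFP*-NSPC 1 they numbered 5 (9.97%), with *Lhx2* (0.0327) in place of *Zfhx2*. They numbered 4 with a pseudocount of 0.1, no filter, a mean of at least 5 CPM, quantile normalization or the block. In edgeR they numbered 6. Of changes that were not called, leaving out *GFP*-NSPC 1 moved that of *Irx3* from 0.5 to 0.17 and that of *Otx2* from -0.37 to -0.81, and leaving out *Dbx2*-NSPC 4 moved that of *Otx2* to -0.09, that of *Irx2* from -0.25 to -0.09 and that of *Tgif1* from 0.19 to 0.4. In edgeR *Pou3f1* was at 0.31, *Irx3* at 0.2, *Otx2* at -0.92, and *Irx1* at -1.17 against -0.5. Depth limits the genes near 3 reads, *Irx2*, *Nkx6-2* and *Hopx*.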
